A study of Mus musculus with 30 samples.

Results

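The genes described here encode metabotropic glutamate receptors. They were chosen by name: the rows of the count table whose gene identifiers match Grm2, Grm3, Grm4, Grm5, Grm7 and Grm8, which are 6 of the 55335 genes counted. All 6 were counted in each of the 30 libraries and all 6 passed the filter on low counts, which kept 19368 genes. Other members of the family are not analysed here.

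The libraries were made from punches of the nucleus accumbens of female mice, taken 24 h after a social interaction test. The D1 groups came from D1-Cre-RT mice and the D2 groups from A2A-Cre-RT mice. In these lines Cre, driven by the gene of the dopamine D1 receptor or of the adenosine A2A receptor, places an HA tag on ribosomes, so that ribosome-bound RNA of medium spiny neurons of the direct (D1) or indirect (D2) type can be pulled down with an HA antibody. Control, Resilient and Susceptible libraries were made for each line, 5 a group in 6 groups. Resilient and Susceptible mice both went through chronic witness defeat stress, in which a mouse watches another being attacked, and were told apart by their social interaction scores. Each library pools 4 mice of similar score, so that p-values measure the spread between pools. Strain and age are not given in the labels, nor what the Control mice experienced. As RNA is pulled from a tissue punch, fewer cells of a type and less RNA per cell cannot be told apart.

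Metabotropic glutamate receptors are G-protein-coupled receptors that respond to the glutamate released at excitatory synapses, more slowly than the ion channel receptors. Group I receptors, with Grm5 here, couple to Gq and phospholipase C, sit mostly at the postsynaptic side and are held there by Homer proteins. Group II (Grm2 and Grm3) and group III (Grm4, Grm7 and Grm8) couple to Gi and Go, lower cyclic AMP and often act at axon terminals, where they reduce transmitter release. In the striatum, Grm5 is known for its role in synaptic plasticity of medium spiny neurons, Grm3 is made by glia as well as neurons, and Grm4 is known from the terminals of indirect pathway neurons.

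On GRCm38, in the GENCODE M21 annotation, Grm5 (ENSMUSG00000049583) lies on the plus strand at chr7:87584168-88134907. Of group II, Grm2 (ENSMUSG00000023192) lies on the minus strand at chr9:106643095-106656082 and Grm3 (ENSMUSG00000003974) on the minus strand at chr5:9485541-9725170. Of group III, Grm4 (ENSMUSG00000063239) lies on the minus strand at chr17:27422387-27521403. Grm7 (ENSMUSG00000056755) lies on the plus strand at chr6:110645581-111567230, and Grm8 (ENSMUSG00000024211) on the minus strand at chr6:27275119-28135178. Counts are of reads on the exons of the whole gene, so isoforms were not separated. Grm7 shares 130 exon bases with an antisense gene, Gm20387, which had 2965 counts over all 30 libraries. Grm2 shares 470 exon bases with an antisense gene with 0 counts, and Grm8 shares 96 with a microRNA gene with 0 counts. As the strand setting of the counting is not given, reads in those shared bases are uncertain.

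Grm2 and Grm8, from different receptor groups, were the members called between D1 and D2 libraries over all 3 conditions, and the sequence before the start of each is shown for that reason. The sequences are RefSeq's (GRCm38.p6), read on the minus strand 5′ to 3′ towards the start. Capitals mark the motif GGGCGG, the Sp1 GC box, searched on both strands.
Grm2, chr9:106656110-106656359: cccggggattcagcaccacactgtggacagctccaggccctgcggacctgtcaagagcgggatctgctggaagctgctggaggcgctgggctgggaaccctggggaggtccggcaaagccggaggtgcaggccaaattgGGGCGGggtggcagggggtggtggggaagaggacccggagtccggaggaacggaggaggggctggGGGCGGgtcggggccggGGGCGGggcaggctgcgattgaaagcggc
Grm8, chr6:28135179-28135396: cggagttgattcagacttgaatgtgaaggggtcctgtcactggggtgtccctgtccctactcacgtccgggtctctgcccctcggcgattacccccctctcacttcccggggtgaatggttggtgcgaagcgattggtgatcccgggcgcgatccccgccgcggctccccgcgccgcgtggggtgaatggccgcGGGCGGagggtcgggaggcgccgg
The Grm2 stretch holds 3 matches, which do not overlap each other, and the Grm8 stretch holds 1. In the 250 bases before the start, G and C make up 71.2% of the Grm2 window and 68.4% of this Grm8 window, against a median of 52.4% over 32851 promoters. GGGCGG is found in 32.7% of those promoters. The motif TGACG, the half-site of the cyclic AMP response element, is found in 17.8% of them and in neither of these windows. Of the Grm8 window, 218 bases are shown, those before the first annotated base of the gene. RefSeq gives Grm8 starts further into the gene as well, and their windows differ: chr6:28134422-28134671 has 54.4% G and C, no GGGCGG and 1 TGACG, and chr6:28126427-28126676 has 43.6% G and C and neither motif. RefSeq's table holds windows for 4 of the 6 members, Grm2, Grm3, Grm7 and Grm8. Grm3 and Grm7, which were not called over all 3 conditions, also have windows rich in G and C that hold GGGCGG. The Grm3 window has 62.4% G and C and 1 match, and the Grm7 windows have 62.0% and 65.2% and 1 match each. A match describes the letters of the window and is no evidence of binding.

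The libraries held between 28996168 and 65882152 counts in genes. The D1 neuron markers (7 genes, among them Drd1 and Pdyn) summed to 1736 to 2609 CPM (read counts scaled to a common library size with TMM factors) in D1 libraries and 281 to 1858 in D2 libraries. The 5 D2 neuron markers used (among them Drd2 and Penk) summed to 1120 to 2771 in D1 libraries and 4867 to 12799 in D2 libraries, so each class carried some RNA of the other. Markers of other cells were present in all libraries. The endothelial sum was 15.1 to 43.5 CPM in D1 libraries and 60.6 to 318 in D2 libraries, and the interneuron sum (8 genes, among them Sst, Npy and Pvalb) was 308 to 502 in D1 and 79.0 to 294 in D2 libraries. Neither range overlapped. In all, 4 libraries stood apart. D2 Susceptible replicates 1 and 2 had the fewest genes with a count, 15822 and 16525, against 19440 to 22375 in the others, and the highest sums of oligodendrocyte markers, 1765 and 1331 CPM. D1 Susceptible replicate 1 had 41.2% of its reads outside genes, against 5.20% to 11.1% in the others. Its TMM factor was 0.340, against 0.957 or more in the others. This set its library size to 9855837, below its 28996168 counts in genes, and raised all of its CPM values. D2 Resilient replicate 5 had the highest sum of D1 markers among D2 libraries, 1858 CPM.

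Grm5 was the most abundant member in every library. Set beside each other per length (RPKM, the CPM divided by kilobases of annotated exon), Grm5 averaged 52.3 ± 10.4 RPKM (SD, n = 30), Grm3 15.2 ± 3.29, Grm7 12.3 ± 1.01, Grm4 9.56 ± 1.55, Grm2 1.89 ± 0.662 and Grm8 0.539 ± 0.254. Grm5 made up 46.3% to 72.5% of the summed RPKM of the 6 genes, with a mean of 56.6%. Its lowest library, at 38.7 RPKM, was above the highest of Grm3, at 27.3. Grm4 and Grm2 did not overlap either, with a lowest Grm4 of 6.83 and a highest Grm2 of 3.14. Neighbours between these were closer. Grm3 was above Grm7 in 27 of 30 libraries and Grm7 above Grm4 in 28 of 30, with overlapping ranges. The order of Grm3 and Grm7 depends on the length used: with the longest transcript in place of all exons, Grm3 was above Grm7 in 4 of 30 libraries. Grm8, the least abundant, was below Grm2 in all 30 libraries, although their ranges over libraries overlapped. Its counts ran from 47 to 575 a library, and those of Grm5 from 6163 to 42754.

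**Figure D1:**
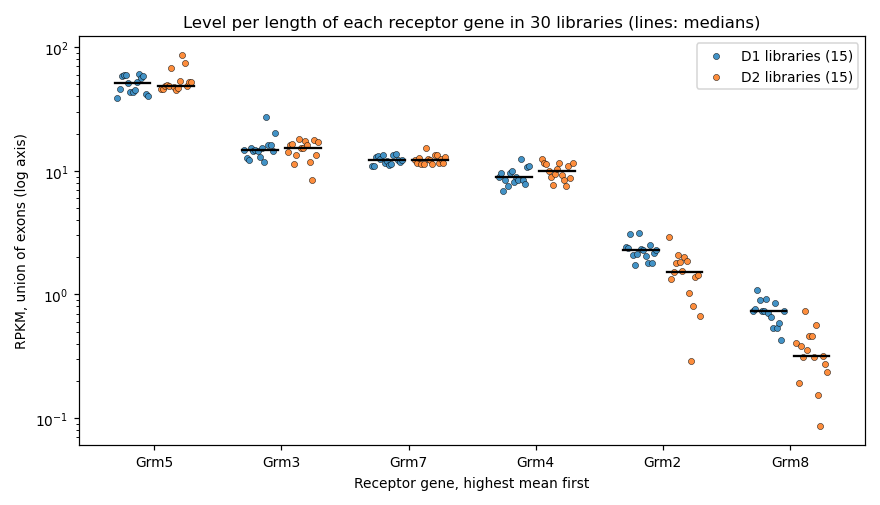
Level of each receptor gene per length (RPKM, log axis) in the 15 D1 and 15 D2 libraries, one point a library, with lines at the medians. Grm5 lies above all others, and Grm2 and Grm8 lie lowest, with D2 libraries reaching lower than D1 libraries in both.

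Members also differed in how much they varied among the 30 libraries. Grm7 was the steadiest, between 64.5 and 90.4 CPM, with a coefficient of variation of 8.16%. Grm4 followed with 16.3%, Grm5 with 19.8%, Grm3 with 21.7%, Grm2 with 35.0% and Grm8 with 47.0%. Grm2 and Grm8 varied more within D2 libraries (43.0% and 47.2%) than within D1 libraries (17.8% and 23.3%); this difference was not tested.

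The first comparison asked where the receptors differ between the direct and the indirect pathway. Averaged over the 3 conditions, 2 of 6 members passed the test in edgeR (quasi-likelihood test, adjusted p under 0.05 over all genes tested), Grm8 and Grm2, both higher in D1 libraries. Of all genes tested, 29.3% passed in this comparison, so a share of 2 in 6 lies near the background. In Control libraries 1 member passed (Grm8), against 8.3% of all genes. In Resilient libraries 0 passed, against 6.65% of all genes; at an unadjusted p under 0.05, 1 did (Grm8), against 15.2% of all genes. Limma voom called Grm8 there and DESeq2 called 0. In Susceptible libraries 3 passed (Grm2, Grm3 and Grm8, all higher in D1), against 23.9% of all genes.

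Grm8, a group III receptor with high affinity for glutamate, was about 2-fold higher in D1 libraries. In D1 Control libraries it was at 7.21, 7.58, 10.8, 9.0 and 7.23 CPM in replicates 1 to 5, and in D2 Control libraries at 3.99, 1.90, 3.76, 3.07 and 7.30. Only D2 Control replicate 5 reached the D1 values. In D1 Resilient libraries it was at 7.29, 9.05, 6.99, 6.53 and 5.26 CPM, and in D2 Resilient libraries at 3.49, 4.55, 4.59, 3.06 and 5.59. There the lowest D1 library was below the highest D2 library. In D1 Susceptible libraries it was at 8.42, 5.34, 5.87, 4.27 and 7.32 CPM, and in D2 Susceptible libraries at 1.52, 0.851, 3.16, 2.71 and 2.32. These groups did not overlap, which held for 8.92% of all genes in that comparison.

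Over all 3 conditions the log2 difference of Grm8 was 1.11 (SE 0.171, edgeR adjusted p = 6.83e-06), a ratio of 2.16, and 15 of 15 D1 libraries were above the D2 mean. It was 1.06 in Control (SE 0.294, edgeR adjusted p = 0.0195), 0.72 in Resilient (SE 0.293, edgeR adjusted p = 0.176) and 1.55 in Susceptible libraries (SE 0.302, edgeR adjusted p = 0.000504). The Control call was lost without D1 Control replicate 3 (log2 0.96), D2 Control replicate 2 (0.89) or D2 Control replicate 4 (0.99), with edgeR adjusted p between 0.00154 and 0.0685 over the 10 libraries left out in turn. Without the 4 libraries that stood apart, the Susceptible difference was 1.07 (edgeR adjusted p = 0.0128) and that over all 3 conditions 0.99 (edgeR adjusted p = 4.03e-06); over the alternatives other than leaving out single libraries these adjusted p ran from 6.07e-06 to 0.0303 and from 1.42e-09 to 7.77e-06.

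Grm2, a group II receptor known as a presynaptic autoreceptor of cortical and thalamic afferents, had the second difference. In Control libraries it was at 11.8, 11.7, 15, 10.2 and 8.47 CPM in D1 and at 14.3, 6.53, 7.49, 8.75 and 10.2 in D2, with wide overlap. In Resilient libraries it was at 10.4, 15.4, 11.4, 11.2 and 10.0 CPM in D1 and at 8.99, 7.56, 9.92, 9.18 and 5.01 in D2, and each D1 library was above each D2 library by a narrow margin. In Susceptible libraries it was at 8.83, 12.3, 8.80, 10.7 and 11.3 CPM in D1 and at 1.42, 3.97, 6.77, 6.98 and 3.29 in D2. Those groups did not overlap either; in the Resilient comparison the groups of 9.7% of all genes did not.

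Over all 3 conditions the log2 difference of Grm2 was 0.67 (SE 0.157, edgeR adjusted p = 0.0015), a ratio of 1.59, with 15 of 15 D1 libraries above the D2 mean. It was 0.28 in Control (95% interval -0.27 to 0.83, edgeR adjusted p = 0.670), 0.52 in Resilient (95% interval -0.03 to 1.07, edgeR adjusted p = 0.378) and 1.21 in Susceptible libraries (SE 0.276, edgeR adjusted p = 0.0022). The Susceptible call was kept without the 4 libraries that stood apart (0.93, edgeR adjusted p = 0.00899) and lost when only the 2 Susceptible groups entered the fit (1.21, edgeR adjusted p = 0.0698), within a range of 0.0002 to 0.0698 over 8 alternatives. That the class difference is larger in Susceptible than in Control libraries was not called for Grm2 (difference of differences 0.93, SE 0.384, edgeR adjusted p = 0.637) nor for Grm8 (0.49, SE 0.415, edgeR adjusted p = 0.738).

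Other cells moved with the same comparison. The interneuron sum was higher in each D1 library than in each D2 library, and the sum of 6 glutamatergic neuron markers (among them Slc17a7 and Tbr1), genes of cells that send axons into the accumbens but have no cell bodies there, was 510 to 982 CPM in D1 and 174 to 574 in D2 libraries. The D2 libraries with the highest interneuron sums, Control replicate 5 (294 CPM) and Resilient replicate 5 (208 CPM), also had the highest D1 marker sums (1236 and 1858 CPM) and the highest Grm8 of the 15 D2 libraries (7.30 and 5.59 CPM). Grm2 was the second highest of the 15 D2 libraries in the first (10.2 CPM) and the lowest of its group in the second (5.01 CPM). Within the 15 D2 libraries Pearson's r of log2 CPM with the interneuron sum was 0.65 for Grm8 and 0.33 for Grm2, and within the 15 D1 libraries it was 0.06 and 0.15; these libraries share their depth and purity, and the values are descriptions. The part of these markers in the Grm8 and Grm2 differences was not tested.

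**Figure D2:**
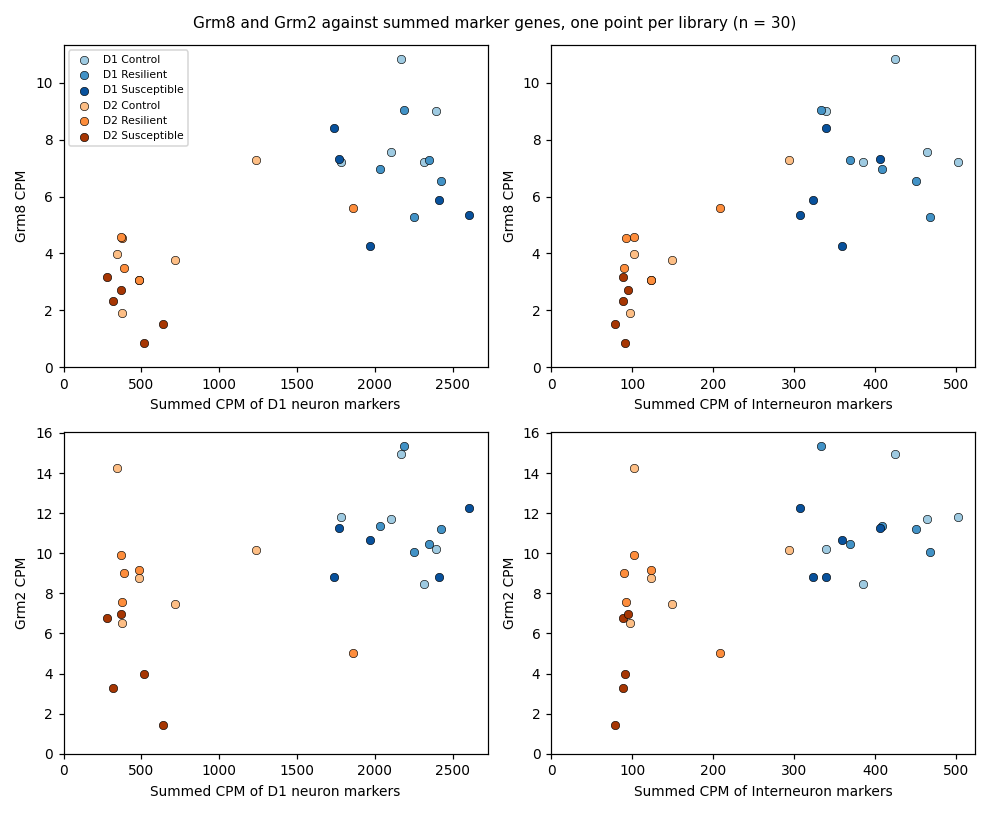
CPM of Grm8 (top) and Grm2 (bottom) against the summed CPM of the D1 neuron markers (left) and the interneuron markers (right), one point for each of 30 libraries, coloured by group. D2 Control replicate 5 (interneuron sum 294, Grm8 7.30) lies between the D2 and D1 clouds, and the lowest interneuron sum of a D1 library is 308.

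Grm3, the other group II receptor, was called between classes in Susceptible libraries, and that call rested on single libraries. It was at 83.2, 48.9, 48.9, 43.9 and 62.0 CPM in D1 Susceptible and at 36.0, 25.6, 53.9, 41.1 and 52.4 in D2 Susceptible libraries, with overlap. The 83.2 CPM of D1 Susceptible replicate 1 came from 820 counts and depends on its TMM factor of 0.340. The Grm3 log2 differences below include this library unless it is named as left out. Its log2 difference was 0.45 (SE 0.158, edgeR adjusted p = 0.0365). The call was lost without D1 Susceptible replicate 1 (0.28), D1 Susceptible replicate 5 (0.44), D2 Susceptible replicate 1 (0.42) or D2 Susceptible replicate 2 (0.34), and the difference was 0.06 without the 4 libraries that stood apart (edgeR adjusted p = 0.837, within 0.0257 to 0.867 over 8 alternatives). Over all 3 conditions the log2 difference of Grm3 was 0.05 (95% interval -0.14 to 0.24, edgeR adjusted p = 0.727). Pearson's r of Grm3 log2 CPM with the share of reads outside genes was 0.81 over the 15 D1 and -0.82 over the 15 D2 libraries, as a description. These values include libraries far from the rest. The share was 41.2% in D1 Susceptible replicate 1 and at most 9.03% in the other D1 libraries. It was 11.1% and 10.4% in D2 Susceptible replicates 1 and 2 and at most 7.87% in the other D2 libraries. The r without these libraries was not computed.

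Grm4, the group III receptor linked to indirect pathway terminals, was at 53.6, 57.4, 40.8, 50.4 and 45.4 CPM in D1 Control and at 74.9, 69.3, 68.2, 59.5 and 52.8 in D2 Control libraries. The 5 D1 libraries were all below the D2 mean of 64.9 ± 8.72 CPM (SD, n = 5), and the highest D1 library exceeded the lowest D2 library. The log2 difference, D1 minus D2, was -0.39 (SE 0.131) and did not pass (edgeR adjusted p = 0.0614). It passed in DESeq2 (-0.40, adjusted p = 0.0375), in limma voom (-0.50, adjusted p = 0.000178), with only the Control groups in the fit (adjusted p = 0.0269) and without D2 Control replicate 5 (-0.44, adjusted p = 0.0387); over 6 alternatives other than leaving out a library, adjusted p ran to 0.103. In Resilient libraries the difference was -0.11 (95% interval -0.37 to 0.16) and in Susceptible libraries 0.09 (95% interval -0.18 to 0.36), where it was -0.13 without the 4 libraries. Over all 3 conditions Grm4 did not pass (-0.14, SE 0.0757, edgeR adjusted p = 0.184). There it passed, lower in D1, in limma voom (-0.30, adjusted p = 0.000162) and without the 4 libraries that stood apart (-0.22, edgeR adjusted p = 0.0259), and adjusted p reached 0.395 over all alternatives.

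Grm5 and Grm7 were not called between classes in edgeR. Grm5, the group I receptor, differed by 0.14 in Control (95% interval -0.16 to 0.44), by -0.14 in Resilient (-0.44 to 0.16) and by -0.29 in Susceptible libraries (-0.59 to 0.02). Its Control difference was called by limma voom alone (0.26, adjusted p = 0.0274, within 0.0274 to 0.729 over 6 alternatives). Grm7, a widely made group III receptor with low affinity for glutamate, had the narrowest interval, with a log2 difference over all 3 conditions of -0.02 (95% interval -0.12 to 0.07, edgeR adjusted p = 0.787).

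**Figure D3:**
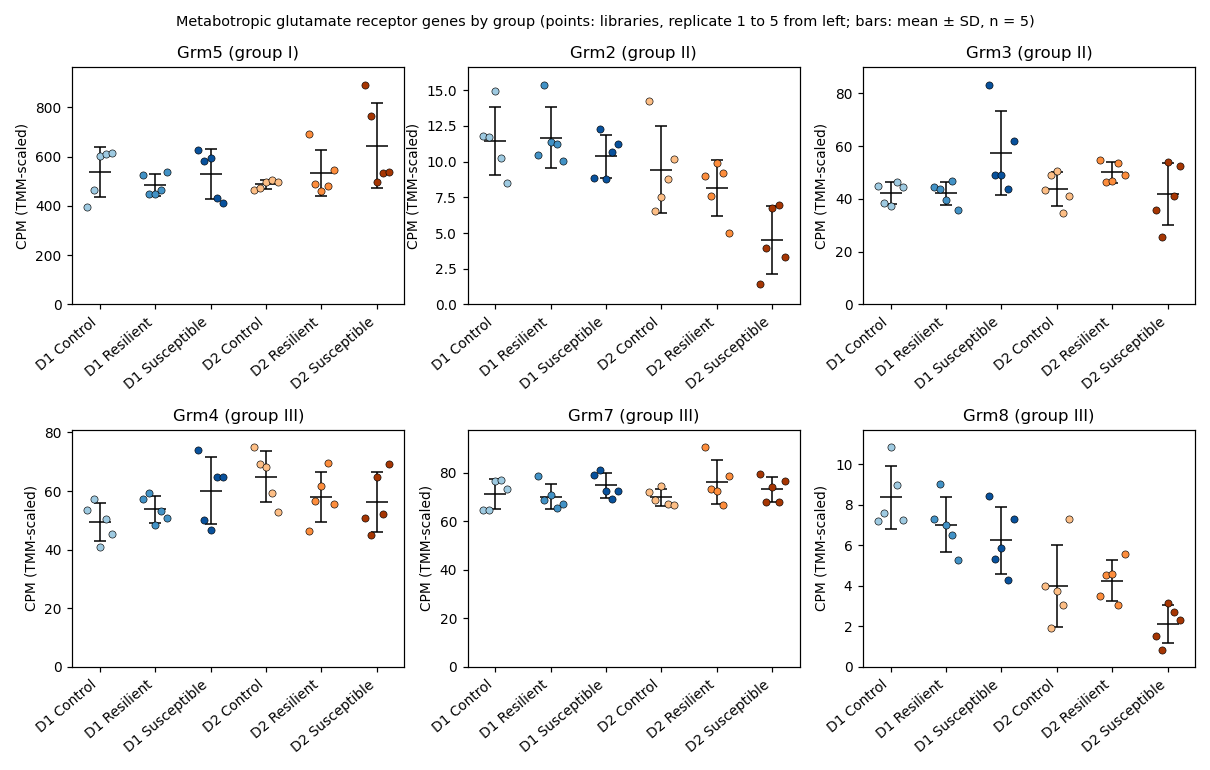
CPM of each member in each library (points, replicates 1 to 5 from left) by group, with mean and SD (bars, n = 5). Grm8 is higher in D1 than in D2 groups, Grm2 is lowest in D2 Susceptible libraries (mean 4.49), and Grm7 stays between 64.5 and 90.4 in all 30 libraries.

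The second comparison asked what stress did to the receptors within each class. In edgeR, 0 of 6 members passed in any of the 6 comparisons between conditions. Few genes of any kind did. The share of all genes called was 0% in the 3 comparisons of D1 libraries and in D2 Resilient against Control, 0.00516% in D2 Susceptible against Control and 0.0516% in D2 Susceptible against Resilient. At an unadjusted p under 0.05, 3 members did in D2 Susceptible against Control (Grm2, Grm8 and Grm5) and 2 in D2 Susceptible against Resilient (Grm2 and Grm8), where 15.7% and 19.1% of all genes did. In D1 libraries 2 did in Susceptible against Control (Grm3 and Grm4; 2.4% of all genes) and 1 in Susceptible against Resilient (Grm3; 3.49%). For Resilient against Control the count was 0 in each class, where 2.6% of all genes did in D1 and 4.2% in D2 libraries. DESeq2 called 1 member in D2 Susceptible against Control (Grm2), 2 in D2 Susceptible against Resilient (Grm2 and Grm8) and 0 in the other comparisons of conditions; limma voom called 0 in all 6.

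In D2 Susceptible libraries Grm2 and Grm8 had their lowest means. Grm2 averaged 4.49 ± 2.38 CPM (SD, n = 5) there, 9.44 ± 3.02 in D2 Control and 8.13 ± 1.94 in D2 Resilient libraries, and each of the 5 Susceptible libraries was below both other means, with overlapping ranges. Its log2 difference was -1.07 against Control (SE 0.274, edgeR adjusted p = 0.129) and -0.86 against Resilient (SE 0.274, edgeR adjusted p = 0.0976). DESeq2 gave -1.06 (adjusted p = 0.0223) and -0.85 (adjusted p = 0.0432), the lowest of ranges over 8 alternatives that reached 0.821 and 0.908. Grm8 averaged 2.11 ± 0.926 CPM in D2 Susceptible, 4.00 ± 2.01 in D2 Control and 4.25 ± 1.00 in D2 Resilient libraries. Its log2 difference was -0.92 against Control (SE 0.297, edgeR adjusted p = 0.176) and -1.0 against Resilient (SE 0.297, edgeR adjusted p = 0.0838), the latter called in DESeq2 (adjusted p = 0.0273, in a range to 0.932).

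These values rested in part on D2 Susceptible replicates 1 and 2, which had the lowest Grm2 or Grm8 of their group and the fewest genes with a count. Without that pair the difference from Control was -0.74 for Grm2 (edgeR adjusted p = 0.630) and -0.56 for Grm8 (edgeR adjusted p = 0.900), both still negative. Without D2 Susceptible replicate 3, in contrast, both members were called against Control (-1.27 and -1.12, edgeR adjusted p = 0.0332 and 0.0418) and against Resilient (-1.05 and -1.20, edgeR adjusted p = 0.0218 and 0.0187). Against Resilient, Grm2 was also called without D2 Susceptible replicate 4 (-1.07, edgeR adjusted p = 0.0450) and Grm8 without replicate 5 (-1.04, edgeR adjusted p = 0.0430), while leaving out single libraries gave adjusted p up to 0.283 and 0.257. Over the 15 D2 libraries, Pearson's r of log2 CPM with the number of genes with a count was 0.69 for Grm2 and 0.66 for Grm8, as a description. Over the 15 D1 libraries it was 0.20 and 0.11. The D2 values include replicates 1 and 2 of D2 Susceptible, and r without them was not computed. The interneuron sums of D2 Susceptible libraries, 79.0 to 94.3 CPM, lay below those of D2 Control (97.6 to 294) and overlapped those of D2 Resilient libraries (90.0 to 208). The part of library quality and of other cells in these differences was not tested.

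Grm5 had a difference of the opposite sign in the same libraries. It was at 890, 765, 497, 534 and 537 CPM in D2 Susceptible and at 466, 472, 496, 506 and 497 in D2 Control libraries, so that the high mean came from replicates 1 and 2. The log2 difference of 0.40 (SE 0.148, edgeR adjusted p = 0.203) was 0.09 without that pair. Over the 15 D2 libraries Pearson's r of Grm5 with the number of genes with a count was -0.90, as a description, and over the 15 D1 libraries it was 0.36. The D2 value includes that pair, which had the fewest genes with a count, and r without the pair was not computed. D2 Control libraries were close together, at 487 ± 17.4 CPM (SD, n = 5).

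In D1 libraries the member with the lowest p was Grm3. It was at 44.9, 38.5, 37.2, 46.3 and 44.4 CPM in D1 Control and at 44.7, 43.9, 39.8, 46.9 and 36.0 in D1 Resilient libraries, against 57.4 ± 15.9 (SD, n = 5) in D1 Susceptible. The Susceptible groups overlapped both others through replicate 4, at 43.9 CPM. The log2 difference was 0.43 against Control (SE 0.158, edgeR adjusted p = 1), and 0.28 without D1 Susceptible replicate 1, the library with 41.2% of reads outside genes. In that library the TMM factor was 0.340, and the 83.2 CPM of Grm3 came from 820 counts. The astrocyte markers summed to 669, 382, 385, 379 and 601 CPM in D1 Susceptible replicates 1 to 5. Grm3 was there at 83.2, 48.9, 48.9, 43.9 and 62.0, so within this group both were highest in replicates 1 and 5. The highest astrocyte sum of all D1 libraries, 827 CPM, was that of D1 Control replicate 1, where Grm3 was at 44.9 CPM. Over the 15 D1 libraries Pearson's r of Grm3 was 0.59 with the astrocyte sum and -0.72 with the number of genes with a count, as a description. Over the 15 D2 libraries the same values were -0.04 and 0.66. The part of astrocytes and library quality in the Grm3 difference was not tested. Grm4 was 0.28 higher on the log2 scale in D1 Susceptible than in D1 Control libraries (SE 0.131, edgeR adjusted p = 1), at 74.2, 50.2, 46.7, 64.8 and 64.8 CPM in the former. The 74.2 CPM of replicate 1 came from 731 counts and likewise depends on the TMM factor of 0.340. The D2 neuron markers summed to 2771, 1120, 1597, 2671 and 2372 CPM in the 5 D1 Susceptible libraries, with a mean of 2106 against 1585 in D1 Control. Pearson's r of Grm4 with that sum was 0.59 over the 15 D1 and -0.03 over the 15 D2 libraries, as a description. Over the 15 D1 libraries r of Grm4 was -0.74 with the number of genes with a count and 0.68 with the endothelial sum. The part of other cells and of library quality in the Grm4 difference was not tested. The intervals of Grm2, Grm5, Grm7 and Grm8 all held 0 in the 3 comparisons of D1 libraries: for Grm8 it ran from -1.03 to 0.16 in Susceptible against Control, and for Grm7 from -0.10 to 0.23.

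**Figure D4:**
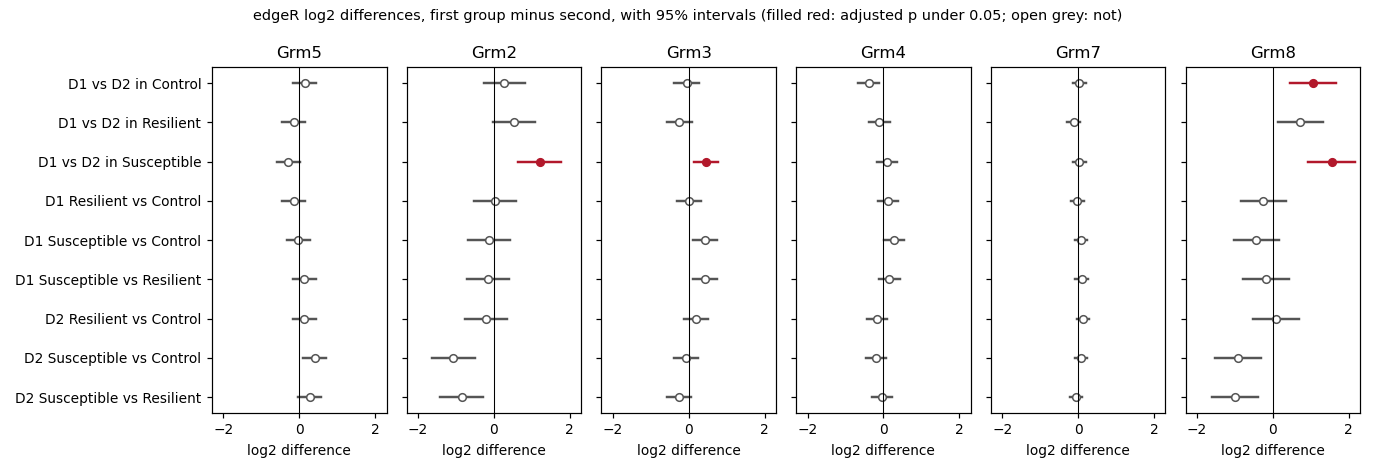
Log2 differences with 95% intervals from edgeR for each member in 9 comparisons, first group minus second; filled red marks an adjusted p under 0.05. Red points are found for Grm8 (Control and Susceptible), Grm2 and Grm3 (Susceptible) in the comparisons of classes, and none in the comparisons of conditions.

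A difference of differences asked if stress acted otherwise in D1 than in D2 libraries. In edgeR 0 of 6 members passed in any of these 3 tests, and 0% of all genes did; DESeq2 and limma voom called 0 members as well. At an unadjusted p under 0.05, 4 members did for Susceptible against Control (Grm2, Grm3, Grm4 and Grm5), where 7.79% of all genes did. For Susceptible against Resilient 1 did (Grm3, against 12.4%), and for Resilient against Control 0 did (against 4.99%). The largest on the log2 scale for Susceptible against Control was Grm2 at 0.93, and the member with the smallest p was Grm3 for Susceptible against Resilient (0.70, SE 0.223, edgeR adjusted p = 0.260), which was 0.46 without D2 Susceptible replicates 1 and 2. The 4 members named for Susceptible against Control had edgeR adjusted p of 0.637 or more. Part of these differences rested on the same pair of libraries. Without it the D2 change of Grm3 in Susceptible against Control changed sign, to 0.16, and the high D2 Susceptible mean of Grm5 came from it.

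Some members varied together across libraries, which is given as a description, since the libraries share their group, depth and purity. Grm2 and Grm8 had a Pearson's r of log2 CPM of 0.62 over the 15 D2 and 0.36 over the 15 D1 libraries. Grm5 ran against Grm2 (-0.75 in D2, -0.39 in D1) and against Grm4 (-0.73 in D2, -0.37 in D1), and along with Grm7 (0.45 in D2, 0.70 in D1). The D2 values include D2 Susceptible replicates 1 and 2, which stood apart. There Grm5 was at 890 and 765 CPM, Grm2 at 1.42 and 3.97 and Grm4 at 50.7 and 44.9. The r without that pair was not computed. Grm3 and Grm4 had an r of 0.53 in D2 and 0.66 in D1 libraries.

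By the same measure over 30 libraries, each member has 3 genes most like it among those tested. For Grm5 they were Fnip1 (r = 0.95), Mbnl1 (0.93) and Homer1 (0.93), the last encoding the scaffold that binds Grm5; for Homer1 r was 0.96 within D1 and 0.92 within D2 libraries. For Grm8 they were Sez6l (0.93), Tmem25 (0.92) and Nxph2 (0.92), with r between 0.34 and 0.67 within D1 and 0.90 within D2 libraries, so the likeness was closer within D2 than within D1 libraries. For Grm2 they were Spsb4 (0.89), Prph (0.88) and Gdf11 (0.86); within D1 libraries r was -0.30 for Spsb4, a gene at a mean of 1.23 CPM. For Grm3 they were Syne1 (0.89), Kcnn3 (0.87) and Cacna1c (0.86), and for Grm4 Pitpnm2 (0.89), Mgat5b (0.86) and Adcy5 (0.81), the striatal adenylyl cyclase. Grm7, the steadiest member, had the lowest values, Wapl (0.78), Anks1b (0.74) and Opa1 (0.72).

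Genes that act with the receptors were followed in 5 lists of 53 genes, of which 52 could be tested. Over all 3 conditions 31 of 52 differed between classes in edgeR (59.6%, against 29.3% of all genes), 22 higher in D1 and 9 lower. In Control libraries 19 did (36.5%, against 8.3%), in Resilient 13 (25.0%, against 6.65%) and in Susceptible 27 (51.9%, against 23.9%). These shares describe the lists, which were chosen by hand with earlier results of these data known. The lists also hold markers of other cells, such as Slc1a3 and Slc17a7. The shares within a condition depended on the fit. In limma voom the counts were 30 in Control, 25 in Resilient and 25 in Susceptible libraries. With only the groups compared they were 22, 19 and 10, and without the 4 libraries that stood apart they were 22 in Resilient and 20 in Susceptible libraries.

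Among scaffolds and partners, 5 of 13 differed over all 3 conditions, 4 of them higher in D1. Elfn1, a postsynaptic protein that binds group III receptors across the synapse, was at 12.9 ± 1.96 CPM in D1 and 4.38 ± 1.65 in D2 libraries (SD, n = 15). Its range was 9.27 to 17.2 CPM in D1 and 2.81 to 8.53 in D2 libraries. The share of all genes whose ranges do not overlap in this comparison is not given here. The log2 difference of Elfn1 was 1.57 (SE 0.129, edgeR adjusted p = 5.62e-11). Elfn1 is known from interneurons, and the interneuron sum differed in the same direction. Its part in the Elfn1 difference was not tested. Shank1 differed by 0.70 on the log2 scale (SE 0.0826), while Homer1 did not pass (-0.22, SE 0.12, edgeR adjusted p = 0.169).

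Of 9 G protein genes, 1 was higher in D1 and 3 were lower. Gnai1, an alpha subunit of the inhibitory arm used by group II and III receptors, was 0.74 higher in D1 (SE 0.0657, edgeR adjusted p = 2.85e-10), and Gnb5, a beta subunit that pairs with RGS proteins, was lower in D1 (-0.57, SE 0.044, edgeR adjusted p = 1.52e-11). Of 12 effector genes tested, 7 were higher and 1 lower. Kcnj9, a subunit of the G-protein-gated potassium channel opened by inhibitory receptors, was at 83.8 ± 6.87 CPM in D1 and 53.2 ± 5.41 in D2 libraries (SD, n = 15), so that the log2 scale put D1 higher by 0.66 (SE 0.0539, edgeR adjusted p = 5.67e-11). Of 7 desensitisation genes, 5 were higher in D1 and 1 was lower, with Grk3 at 0.79 (SE 0.0924).

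Of 11 genes that supply or clear the ligand, 5 were higher in D1 and 3 lower. Slc1a3, a glial glutamate transporter, was lower in D1, with -1.55 on the log2 scale (SE 0.194, edgeR adjusted p = 5.77e-07), and Slc7a11, the exchanger that feeds extracellular glutamate, -0.97 (SE 0.171, edgeR adjusted p = 5.06e-05). Slc1a3 is also among the 9 astrocyte markers, whose summed level had a median of 383 CPM in D1 (284 to 827) and 666 in D2 libraries (333 to 766). Slc1a2 makes up most of that sum, and single markers such as Gfap (a mean of 4.92 CPM in D1 Control and 15.7 in D2 Control) and Gja1 (15.02 and 35.4) had lower means in D1. Slc17a7, which was higher in D1 (1.14, SE 0.129), is likewise among the glutamatergic neuron markers. The part of other cells in these differences was not tested.

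In the 6 comparisons of conditions and the 3 differences of differences, 0 of the 52 genes passed in edgeR, and between 2 and 10 had an unadjusted p under 0.05. The count of 10 of 52 was reached in D2 Susceptible against Control, where 15.7% of all genes did, and in D2 Susceptible against Resilient, where 19.1% did, so these shares lie near the background. In D2 Susceptible against Resilient the smallest p were those of Gnai1 (log2 -0.45, SE 0.113, edgeR adjusted p = 0.0634) and Prkcb, a protein kinase C (0.65, SE 0.174, edgeR adjusted p = 0.0683). DESeq2 called 6 of the 52 genes there, both of these among them, beside 976 of all genes, and 0 of the 52 in the other 8. In D2 Susceptible against Control they were those of Slc17a7 (-0.62, SE 0.221, edgeR adjusted p = 0.195) and Elfn1 (-0.61, SE 0.221, edgeR adjusted p = 0.201). Limma voom called 3 genes in D1 Resilient against Control (Homer1, Pick1 and Rgs2), 1 in the difference of differences for Resilient against Control (Pick1) and 0 in the others.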

How the data were processed

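Ribosome-bound RNA of 30 libraries was measured, 5 in each of 6 groups taken from the sample titles. Per the labels' protocols, an HA antibody pulled down the tagged polyribosomes, their RNA was DNase-treated, and 10 ng entered each SMART-Seq v4 library. The authors deposited whole-number counts of reads per gene, with no normalization; the submitters' processing notes name HISAT2, HTSeq, GRCm38 and mm10. The sources used here give no versions, annotation release or strand setting. The series' own deposited table held the same counts for all 30 libraries. Summary lines of reads not assigned to a gene were 10.1% to 53.3% of a library's reads and stayed out of sizes and tests.

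Gene identifiers were matched to GENCODE M21 on GRCm38 (55154 of 55335 with a symbol). Genes were filtered with filterByExpr at its defaults (minimum count 10, minimum total 15; 35967 set aside), and TMM factors set library sizes. The robust quasi-likelihood F test of edgeR 4.0.16 (R 4.3.3) was applied in 1 fit of 6 groups. The 13 comparisons were each adjusted by Benjamini-Hochberg over 19368 genes. A standard error is the size of the log2 difference over the square root of F. The common biological coefficient of variation was 41.4%, and those of the members ran from 9.95% (Grm7) to 32.4% (Grm8). A count of 3, the limit that a count of 0 allows, was 0.043 to 0.304 CPM; intervals of this kind cover counting error only. Replicates within a group differed beyond sampling noise (chi-square per degree of freedom 12.8 or more in 60 pairs).

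Alternatives were DESeq2 1.42.0, its size factors in edgeR, no filter, limma 3.58.1 voom with sample quality weights, only the groups compared, the replicate number as a block, leaving out each library, and leaving out 2 or 4 libraries that stood apart. The members, the lists, the markers and these 4 libraries were chosen with earlier results of these data known. All 6 members are named throughout. Of the lists, the text names at most 3 genes in each direction with the smallest p among those called in a comparison, or 2 where none was; Shank1, Grk3, Homer1 and Slc17a7 were added after their values were seen. Genes most like a member are the 3 with the highest Pearson's r of log2 CPM (prior count 1). Of 6 D2 markers listed, 5 were used; the other is not analysed here. Figures were drawn with matplotlib 3.10.9.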

Additional observations from a re-analysis of the deposited data

Results flagged for a closer look

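In D1 Resilient libraries, replicate 2 had a Grm2 level of 15.4 CPM, far from the other 4, which lay between 10.0 and 11.4 CPM. The gap to the nearest library was 0.751 of the range of the group, above the limit of 0.71 for 5 libraries. It was the single case among 36 sets of 5 libraries examined, where chance gives about 1 in 20.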

How the results depend on the processing

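The 78 log2 differences (6 members in 13 comparisons) were recomputed under the alternatives, giving 1644 values. Of these, 1566 kept direction and side of the threshold, 19 newly passed it, 12 no longer did and 47 changed direction, each of a difference that was not called. The number of members called moved to 1 (D2 Susceptible against Control) and 2 (D2 Susceptible against Resilient) in DESeq2, and between classes in Control libraries to 2 in DESeq2, 2 with only the groups compared and 3 in limma voom. Over all 3 conditions it was 3 in limma voom and without the 4 libraries (with Grm4). Between classes it was 1 in Resilient libraries with only the groups compared, in limma voom and without the 4 libraries, and 1 in Susceptible libraries with only the groups compared. Leaving out single libraries gave 0 to 2 members in each of D2 Susceptible against Control, D2 Susceptible against Resilient and the classes in Control. For these changes the cause was not tested, except that fewer samples enter the fits with only the groups compared and without libraries.

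Directions changed as follows, on the log2 scale. In limma voom, Grm4 was -0.04 in D1 Susceptible against Resilient, Grm3 0.09 in D2 Susceptible against Control, and Grm3 0.03 and Grm4 0.12 in D2 Susceptible against Resilient. Between classes in limma voom, Grm4 was -0.28 and Grm5 0.07 in Susceptible libraries, and Grm3 -0.08 and Grm5 0.09 over all 3 conditions. Among the differences of differences in limma voom, Grm8 was -0.26 (Susceptible against Control), Grm4 -0.16 and Grm5 0.15 (Susceptible against Resilient). Without D2 Susceptible replicates 1 and 2, Grm3 was 0.16 in D2 Susceptible against Control, and Grm4 0.10 and Grm5 -0.03 in D2 Susceptible against Resilient. Between classes without that pair, Grm4 was -0.03 and Grm5 0.04 in Susceptible libraries, Grm3 -0.01 and Grm5 0.02 over all 3 conditions, and Grm5 0.16 in the difference of differences for Susceptible against Resilient. Without the 4 libraries, Grm3 was 0.16 in D2 Susceptible against Control, Grm8 -0.03 in D2 Resilient against Control, and Grm4 0.07 and Grm5 -0.03 in D2 Susceptible against Resilient. Between classes without the 4, Grm4 was -0.13 in Susceptible libraries, Grm3 -0.08 over all 3 conditions, and Grm5 0.09 in the difference of differences for Susceptible against Resilient. Leaving out single libraries gave, in D1 libraries, -0.11 to 0.06 for Grm5 (Susceptible against Control), and -0.09 to 0.15 for Grm2 and -0.06 to 0.01 for Grm7 (Resilient against Control). In D2 libraries it gave -0.18 to 0.06 for Grm3 (Susceptible against Control), -0.10 to 0.42 for Grm8 (Resilient against Control), and -0.13 to 0.04 for Grm4 and -0.10 to 0.01 for Grm7 (Susceptible against Resilient). Between classes it gave -0.12 to 0.02 for Grm3 in Control libraries, and -0.01 to 0.10 for Grm3 and -0.03 to 0.01 for Grm7 over all 3 conditions.

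Counts over all genes varied more. D2 Susceptible against Control called 1 gene, 0 to 828 with single libraries left out and 0 to 255 under the other alternatives, and D2 Susceptible against Resilient 10 genes, 0 to 1964 and 0 to 976. Between classes the other alternatives gave 1318 to 5511 in Control (1608 as reported), 1130 to 3412 in Resilient (1288) and 915 to 5406 in Susceptible libraries (4621). Comparisons with 0 genes called gave at most 180 under any alternative. With the replicate number as a block, the number of members called stayed at 0, 1, 0, 3 and 2 in the comparisons named in the report, and 4 genes were called in D2 Susceptible against Control. Libraries of the same number did not deviate together (r from -0.168 to 0.0779 over 15 pairs of groups, 15 of 75 libraries correlating best with their own number), so the numbers are no pairing. Of the 18 genes most like a member, 17 stayed with a prior count of 5, Nxph2 being the exception. Grm8 had the lowest counts of the members, down to 47 in D2 Susceptible replicate 2, a library with 55747736 counts in genes.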
